A study of Mus musculus with 24 samples.

Results

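Potassium channels are membrane proteins that let potassium leave or enter the cell and so set its resting voltage, the length of its action potentials and its firing rate. The pore-forming alpha subunits fall into voltage-gated channels, calcium- and sodium-activated channels, inward rectifiers and tandem-pore-domain channels. Silent subunits and accessory subunits join them in the membrane and alter their gating or their transport. In hypothalamic neurons these channels shape the firing that drives hormone release and autonomic output, and glia use inward rectifiers to take up potassium.

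The genes described here are those of the Kcn symbols. The family was chosen with earlier results of these data known. Within it members were chosen by name alone. Any gene with a symbol of Kcn, further small letters and a number, measured by a probe set with a single gene symbol, was taken. This gave 94 probe sets and 91 genes of the 19937 genes tested, in 20 families. There were 25 voltage-gated alpha subunits, 10 silent subunits, 16 accessory subunits, 8 calcium- or sodium-activated channels, 15 inward rectifiers, 14 tandem-pore-domain channels and 3 transcripts named as antisense to a channel gene (Kcnd3os, Kcnmb4os1 and Kcnmb4os2). Kcnu1 was counted with the calcium- or sodium-activated channels as a relative, by its symbol and not by its gating. Where a gene had more than 1 probe set (Kcna2, Kcnh8 and Kcnma1) the probe set with the highest mean over the arrays stood for it.

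Whole hypothalamus came from male mice of 2 inbred strains, BPH/2J, which is hypertensive, and BPN/3J, which is normotensive and served as its control. Young mice were 6 weeks old and adults 26 weeks; tissue was taken when blood pressure peaks in the 24 h cycle, mice were not pooled, and there were 4 groups of 6 mice, each on its own array, 24 Affymetrix Mouse Gene 1.0 ST arrays in all. The strains differ across the whole genome, so a strain difference in a gene and its relation to blood pressure cannot be told apart in this design.

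All values are deposited RMA values on the log2 scale, and differences are in log2 units with the standard error (SE) of limma's moderated fit. A gene is said to be called where its Benjamini-Hochberg adjusted p over all 19937 genes was below 0.05. Array medians ran from 5.89 to 6.09, and arrays correlated on average with the others of their group at 0.986 to 0.997 over genes, which are not independent replicates. The number of arrays limits the precision. All 19 measured hypothalamus markers lay above 4.74, the median of probe sets without a gene name. Of the channel genes 5 lay below it in their mean over the arrays: Kcne1, Kcne2, Kcne3, Kcnj1 and Kcnk18. In whole tissue, fewer cells of a type and less RNA per cell cannot be told apart.

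The arrays differed in ways that touch several results. The mean of 16 markers of the thalamus, the region next to the hypothalamus, was 7.51 to 8.57 on 5 of the 6 BPH/2J arrays at 6 weeks. The remaining one, replicate 2, stood at 9.23, and the 6-week BPN/3J arrays ran from 9.22 to 9.59. All 16 of these markers were called lower in BPH/2J at 6 weeks, and 11 of 19 hypothalamus markers were called higher. The marker lists were chosen with earlier results of these data known, so these counts and adjustments by the list means are descriptions only. The mean of 11 oligodendrocyte markers was 9.87 ± 0.32 (SD, n = 6) in BPH/2J and 10.37 ± 0.23 in BPN/3J at that age, with 5 of 11 called lower. At 26 weeks the thalamus mean was 9.12 to 9.43 in BPH/2J and 8.79 to 9.64 in BPN/3J. The mean of 6 striatum markers was 9.53 on 26-week BPH/2J replicate 3, against 8.01 to 8.55 on the others of its group. The mean of 7 cortex markers was 8.01 on 26-week BPN/3J replicate 4, against 6.76 to 6.94 on the others of its group. A separate division was seen among the 26-week arrays: along the first principal component of deviations from group means, which held 41.9% of their variance, replicates 5 and 6 of both strains lay at 20.951 to 28.4 and replicates 1 to 4 at -21.9 to 0.14.

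The first comparison asked which channel genes differ between the strains in young mice. At 6 weeks BPH/2J had lower levels of 12 channel genes and higher levels of 4. The lower ones included all 3 Kcnab genes, which encode the beta subunits that sit on the cytoplasmic side of Kcna channels, the pore subunits Kcna1, Kcna4 and Kcnc2, and the tandem-pore-domain channels Kcnk1 and Kcnk4. The higher ones were Kcnn2, a small-conductance calcium-activated channel, Kcna5, Kcnk2 and Kcnip2. The 16 called genes were 17.6% of the 91, where limma called 7.42% of all genes tested. Of all genes 4.42% were called lower and 2.99% higher. At an unadjusted p below 0.05 there were 32 channel genes, beside 18.1% of all genes. For 10 channel genes the ranges of the strains did not overlap, which was so for 5.44% of all genes. The median difference was -0.01 over the channel genes and 0.01 over all genes. The thalamus marker mean was lower in the same BPH/2J arrays, and values adjusted for it follow the account of the genes.

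**Figure D1:**
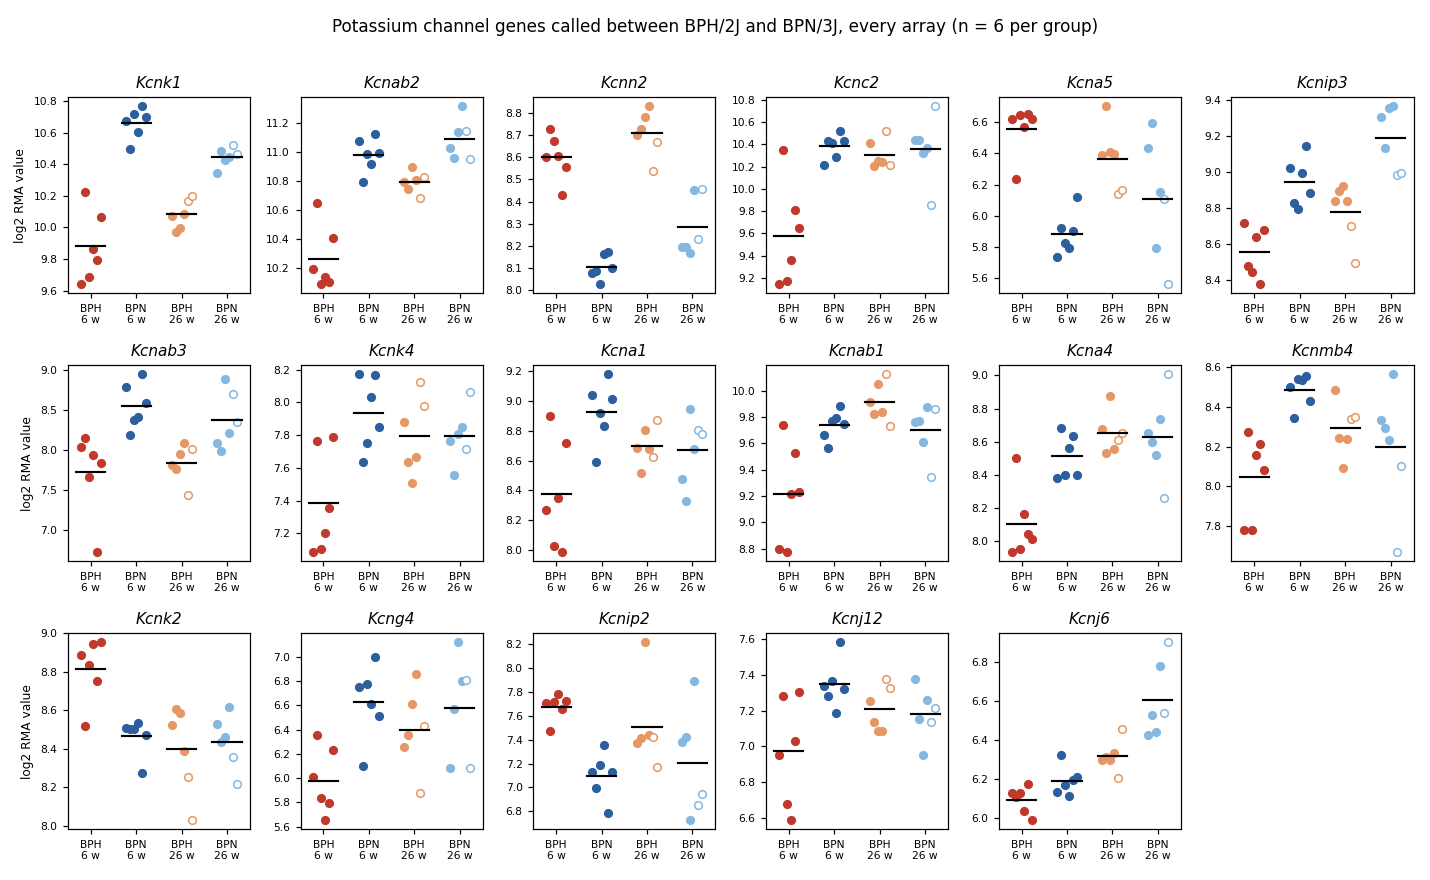
Log2 RMA value (vertical axis) of the 17 channel genes called between the strains at 6 or 26 weeks, on every array of the 4 groups (horizontal axis, n = 6 each); lines are group means and open circles are the 26-week replicates 5 and 6. Kcnn2, Kcnk1 and Kcnip3 stood apart between the strains at both ages, whereas the 6-week BPH/2J points of Kcnc2 and Kcnab1 spread from low values up to the BPN/3J range.

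Among the pore-forming voltage-gated subunits 3 were called lower and 1 higher of 25 (16% called, beside 7.42% of all genes). Kcnc2 encodes a fast delayed rectifier found in fast-firing neurons. It ran from 9.14 to 10.35 with a median of 9.50 in 6-week BPH/2J and from 10.21 to 10.52 with a median of 10.42 in BPN/3J. BPH/2J replicate 2 lay inside the BPN/3J range and the other 5 arrays below it, and the strain difference was -0.80 ± 0.15 (limma, adjusted p = 0.00105).

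Kcna1 encodes a low-threshold delayed rectifier of axons. Its values were 7.98 to 8.90 (median 8.31) in BPH/2J and 8.59 to 9.18 (median 8.97) in BPN/3J. The ranges overlapped, and the difference was -0.56 ± 0.13 (adjusted p = 0.00833).

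Kcna4, an A-type channel gene, had 7.93 to 8.50 (median 8.03) in BPH/2J against 8.38 to 8.68 (median 8.48) in BPN/3J. Again BPH/2J replicate 2, at 8.50, overlapped the other strain, and the difference was -0.41 ± 0.10 (adjusted p = 0.0125). Kcna5, another delayed rectifier of the same family, went the other way. In BPH/2J it ran from 6.24 to 6.65 (median 6.62), and in BPN/3J from 5.73 to 6.12 (median 5.87). The strains did not overlap, and Kcna5 was higher by 0.68 ± 0.13 (adjusted p = 0.00133).

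Other voltage-gated genes did not pass. Kcna2, a partner of Kcna1 in axonal channels, differed by -0.34 ± 0.11 (adjusted p = 0.0743). Its second probe set differed by -0.46 with an adjusted p of 0.00302, so the 2 probe sets of Kcna2 fell on different sides of the threshold. The A-type gene Kcnd2 stood at -0.30 ± 0.11, Kcnd3 at -0.01 ± 0.06, the fast rectifier Kcnc1 at -0.19 ± 0.08 and the M-channel gene Kcnq3 at -0.26 ± 0.10. Of the silent subunits, which form no channel alone, Kcng4 was the called one of 10 (10%, beside 7.42% of all genes). Its ranges of 5.65 to 6.36 (median 5.92) in BPH/2J and 6.10 to 6.995 (median 6.68) in BPN/3J overlapped. The difference of -0.64 ± 0.18 (adjusted p = 0.0235) missed the threshold in 6 of 24 fits that each left out 1 array (replicates 3, 4 and 5 of BPH/2J and 1, 3 and 5 of BPN/3J), with adjusted p up to 0.0756. Kcnv1 was higher on every BPH/2J array (6.48 to 6.96, against 6.04 to 6.48) and yet not called (0.42 ± 0.17, adjusted p = 0.151).

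Accessory subunits held 6 of the 16 calls, 5 lower and 1 higher of the 16 measured (37.5%, beside 7.42% of all genes). Of those measured 6 did not overlap between the strains (37.5%, beside 5.44% of all genes). Kcnab2 had 10.09 to 10.65 (median 10.17) in BPH/2J and 10.79 to 11.12 (median 10.99) in BPN/3J. Every BPH/2J array lay below every BPN/3J array, and the difference was -0.72 ± 0.09 (adjusted p = 2.92e-06), a 1.64-fold change.

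Kcnab3 spread more widely, from 6.72 to 8.15 (median 7.88) in BPH/2J and 8.19 to 8.95 (median 8.50) in BPN/3J. The strains were apart by a narrow gap, with BPH/2J replicate 5 far below the rest, and Kcnab3 differed by -0.83 ± 0.19 (adjusted p = 0.00610). Kcnab1 ran from 8.77 to 9.74 (median 9.22) in BPH/2J and 9.57 to 9.89 (median 9.76) in BPN/3J. Here BPH/2J replicate 2 lay among the BPN/3J arrays, and the difference was -0.53 ± 0.13 (adjusted p = 0.00919).

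The Kcnip genes encode calcium-binding proteins that attach to A-type Kcnd channels, and they did not move together. Kcnip3, whose product also binds DNA and presenilins, ran from 8.38 to 8.72 (median 8.56) in BPH/2J and 8.79 to 9.14 (median 8.94) in BPN/3J. It did not overlap and differed by -0.39 ± 0.09 (adjusted p = 0.00564).

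Kcnip2 was higher in BPH/2J, at 7.47 to 7.78 (median 7.71) against 6.79 to 7.36 (median 7.13). The strains did not overlap, and the difference was 0.58 ± 0.16 (adjusted p = 0.0258), which missed the threshold in 5 of 24 fits that each left out 1 array. The arrays were replicates 1, 3 and 4 of BPH/2J and 2 and 5 of BPN/3J, with adjusted p up to 0.0796. Kcnip1 was also apart (8.30 to 8.55 against 8.13 to 8.30) at 0.19 ± 0.10, with an adjusted p of 0.318.

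Kcnmb4, the neuronal beta subunit of the large-conductance calcium-activated (BK) channel, had 7.78 to 8.28 (median 8.12) in BPH/2J and 8.35 to 8.56 (median 8.52) in BPN/3J. All BPH/2J arrays were below all BPN/3J arrays, with a difference of -0.44 ± 0.11 (adjusted p = 0.0128). The pore of that channel, Kcnma1, stood at -0.30 ± 0.10 and did not pass (adjusted p = 0.0882). No Kcne gene was called, and the 3 antisense transcripts differed by -0.06 to 0.00.

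Of the 8 calcium- and sodium-activated channels Kcnn2 was called (12.5%, beside 7.42% of all genes). Its small-conductance channel carries the after-hyperpolarisation that slows firing. Kcnn2 ran from 8.43 to 8.73 (median 8.60) in 6-week BPH/2J and 8.03 to 8.18 (median 8.10) in BPN/3J. All BPH/2J arrays lay above all BPN/3J arrays, and the difference was 0.49 ± 0.07 (adjusted p = 1.45e-05), a 1.41-fold change. Its relative Kcnn3 stood at 0.09 ± 0.09.

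Tandem-pore-domain channels carry the background potassium current, and 3 of 14 were called (21.4%, beside 7.42% of all genes). Kcnk1 encodes a weakly conducting leak channel and had the smallest p of the channel genes. It ran from 9.64 to 10.23 (median 9.83) in BPH/2J and 10.499 to 10.77 (median 10.69) in BPN/3J. The strains did not overlap, and Kcnk1 differed by -0.78 ± 0.08 (adjusted p = 2.35e-07), a 1.72-fold change.

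Kcnk4, a leak channel opened by stretch and lipids, had 7.08 to 7.79 (median 7.28) in BPH/2J and 7.63 to 8.17 (median 7.94) in BPN/3J. The ranges overlapped, with a difference of -0.55 ± 0.13 (adjusted p = 0.00768). Kcnk2, a close relative with similar stimuli, was higher by 0.35 ± 0.09 (adjusted p = 0.0175), at 8.52 to 8.95 (median 8.86) against 8.28 to 8.53 (median 8.50). A single BPH/2J array, at 8.52, reached into the BPN/3J range, and the call was lost without BPH/2J replicate 4 (adjusted p = 0.05005) or BPN/3J replicate 5 (0.0588). The acid-sensitive Kcnk9 stood at 0.26 ± 0.11 and did not pass.

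Among the inward rectifiers 1 of 15 was called at this age (6.67%, beside 7.42% of all genes). Kcnj12 ran from 6.59 to 7.30 (median 6.99) in BPH/2J and 7.19 to 7.58 (median 7.33) in BPN/3J. The strains overlapped, and the difference of -0.37 ± 0.10 (adjusted p = 0.0263) missed the threshold when replicate 1, 3 or 4 of BPH/2J, or 3 or 5 of BPN/3J, was left out, with adjusted p up to 0.0871. The glial channel Kcnj10 (0.12 ± 0.07), the pore genes of ATP-sensitive channels Kcnj8 (0.21 ± 0.10) and Kcnj11 (-0.05 ± 0.06), and the G-protein-gated Kcnj6 (-0.10 ± 0.07) were not called.

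**Figure D2:**
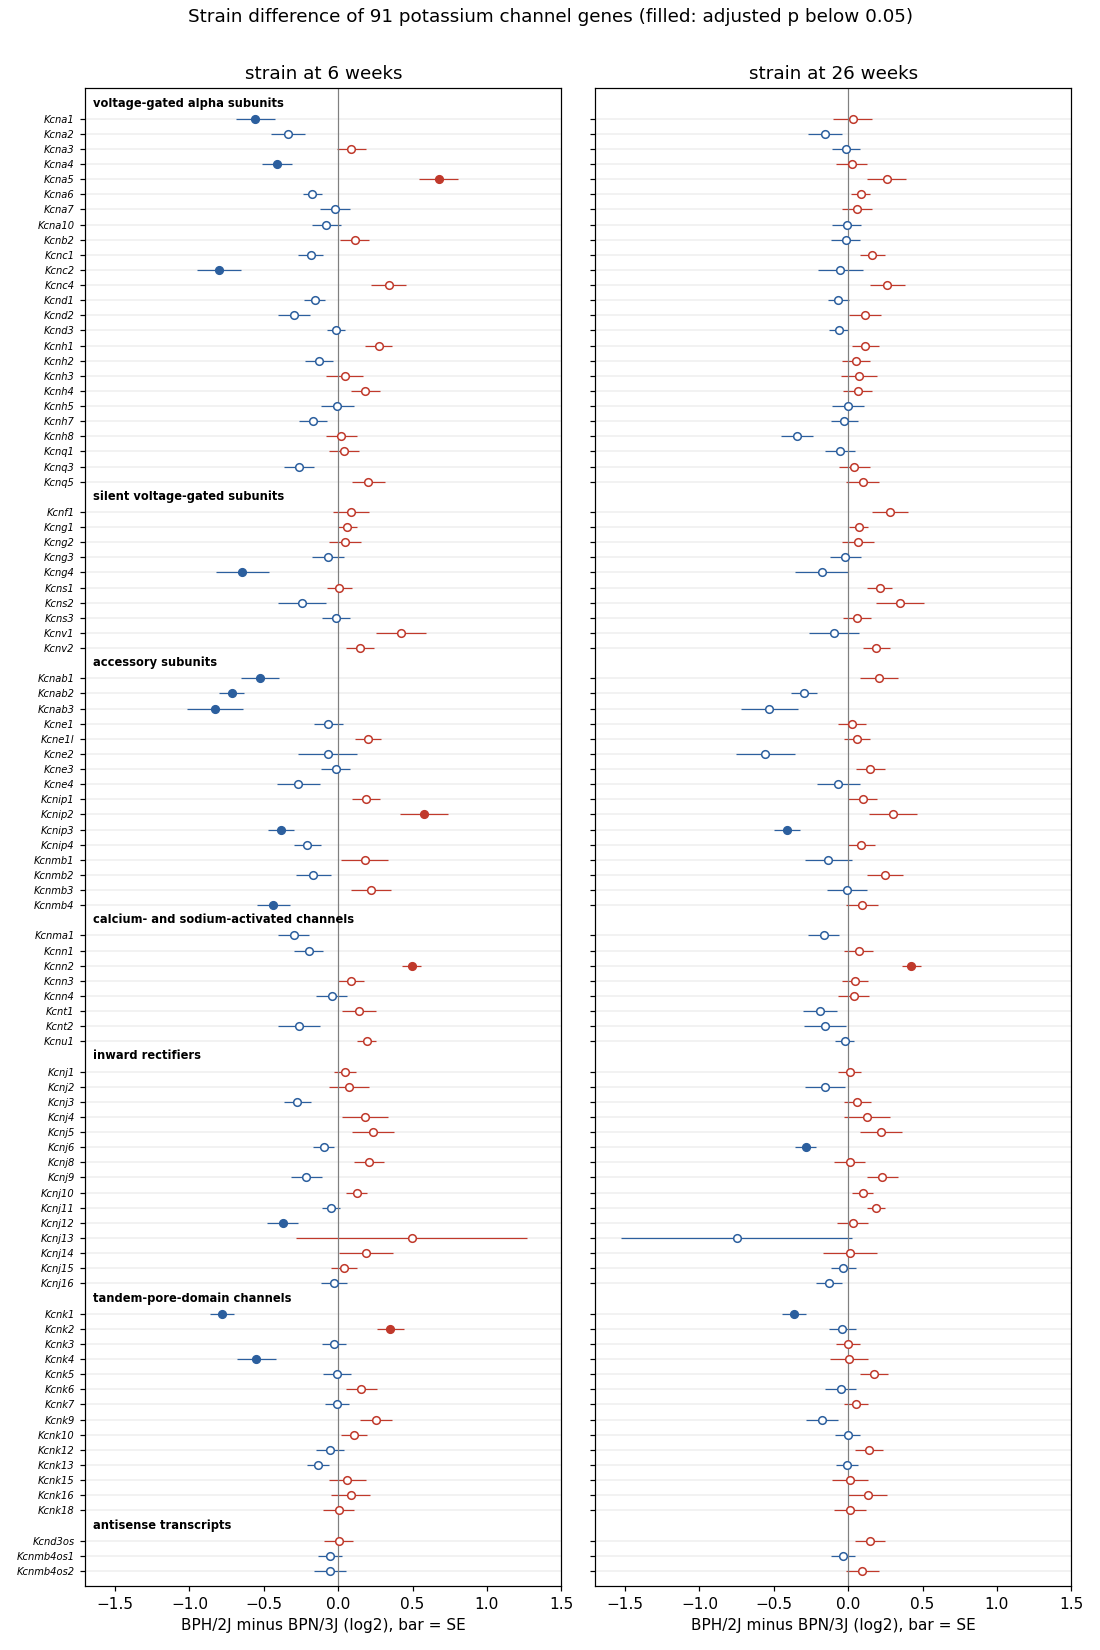
BPH/2J minus BPN/3J difference in log2 units (horizontal axis, bar = SE) of all 91 channel genes (vertical axis, by role) at 6 weeks (left) and 26 weeks (right), filled where the adjusted p was below 0.05 and with red for higher and blue for lower in BPH/2J. There are 16 filled points at 6 weeks and 4 at 26 weeks, and the 3 Kcnab genes lie together on the lower side at 6 weeks; the wide bar is Kcnj13.

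The windows before the starts of 3 called genes with a single listed start are shown as examples of a gene lower at both ages (Kcnk1), a lower accessory gene (Kcnmb4) and a higher one (Kcna5). Each holds the 250 bases before the RefSeq start in GRCm38.p6, read on the gene's own strand, and capitals mark GC boxes (GGGCGG or its reverse complement). Kcnk1 is chr8:125994852-125995101 on the plus strand, Kcnmb4 is chr10:116473524-116473773 on the minus strand and Kcna5 is chr6:126535556-126535805 on the minus strand.
Kcnk1: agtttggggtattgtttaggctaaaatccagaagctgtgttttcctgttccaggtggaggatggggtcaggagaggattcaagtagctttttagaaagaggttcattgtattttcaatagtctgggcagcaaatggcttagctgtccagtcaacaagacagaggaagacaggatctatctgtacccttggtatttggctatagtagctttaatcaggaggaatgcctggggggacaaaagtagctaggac
Kcnmb4: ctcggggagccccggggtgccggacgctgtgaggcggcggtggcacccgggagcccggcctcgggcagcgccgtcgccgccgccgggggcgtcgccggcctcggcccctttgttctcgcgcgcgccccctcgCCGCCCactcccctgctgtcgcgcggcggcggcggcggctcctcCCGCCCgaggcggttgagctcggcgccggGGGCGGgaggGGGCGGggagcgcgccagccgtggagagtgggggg
Kcna5: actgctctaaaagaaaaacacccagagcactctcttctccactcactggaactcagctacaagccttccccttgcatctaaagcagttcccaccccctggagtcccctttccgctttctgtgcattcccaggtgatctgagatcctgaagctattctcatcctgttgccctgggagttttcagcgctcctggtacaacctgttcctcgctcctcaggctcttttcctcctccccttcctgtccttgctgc
The Kcnmb4 window held 4 GC boxes, and those of Kcnk1 and Kcna5 held none. Windows were listed for 69 of the 91 genes, with 94 windows in all, of which 44.7% held a GC box on either strand, against 32.7% of 32851 windows of the same length. An E-box (CACGTG) was in 6.38% of the channel gene windows and 6.02% of all, TATAAA in 3.19% and 12.4%, and the cyclic AMP response element TGACGTCA in 0 of 94 and 1.55%. None of these motifs contains another, a gene can have several windows, and a match is a description of letters only.

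The called genes differed in how they followed the thalamus markers from array to array. On BPH/2J replicate 2, the 6-week array with the thalamus mean of its BPN/3J counterparts, Kcnc2 (10.35), Kcnab1 (9.74), Kcnk4 (7.76), Kcna1 (8.90), Kcna4 (8.50) and Kcnj12 (7.28) all lay within the BPN/3J range. Kcnk4 and Kcnj12 were each slightly higher still on another 6-week BPH/2J array, where the marker mean was low. On replicate 2 Kcnk1 (10.23), Kcnab2 (10.65), Kcnmb4 (8.28) and Kcnip3 (8.48) remained below the BPN/3J range, and Kcnn2 (8.73) remained above. Kcnk1, Kcnab2 and Kcnmb4 were nonetheless at the highest value of their BPH/2J group on that array, nearest to BPN/3J. Kcna5 (6.239) was the lowest of its BPH/2J group there and still above the BPN/3J range. Without that array the 6-week differences were -0.96 for Kcnc2, -0.63 for Kcnab1, -0.85 for Kcnk1 and 0.47 for Kcnn2.

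**Figure D3:**
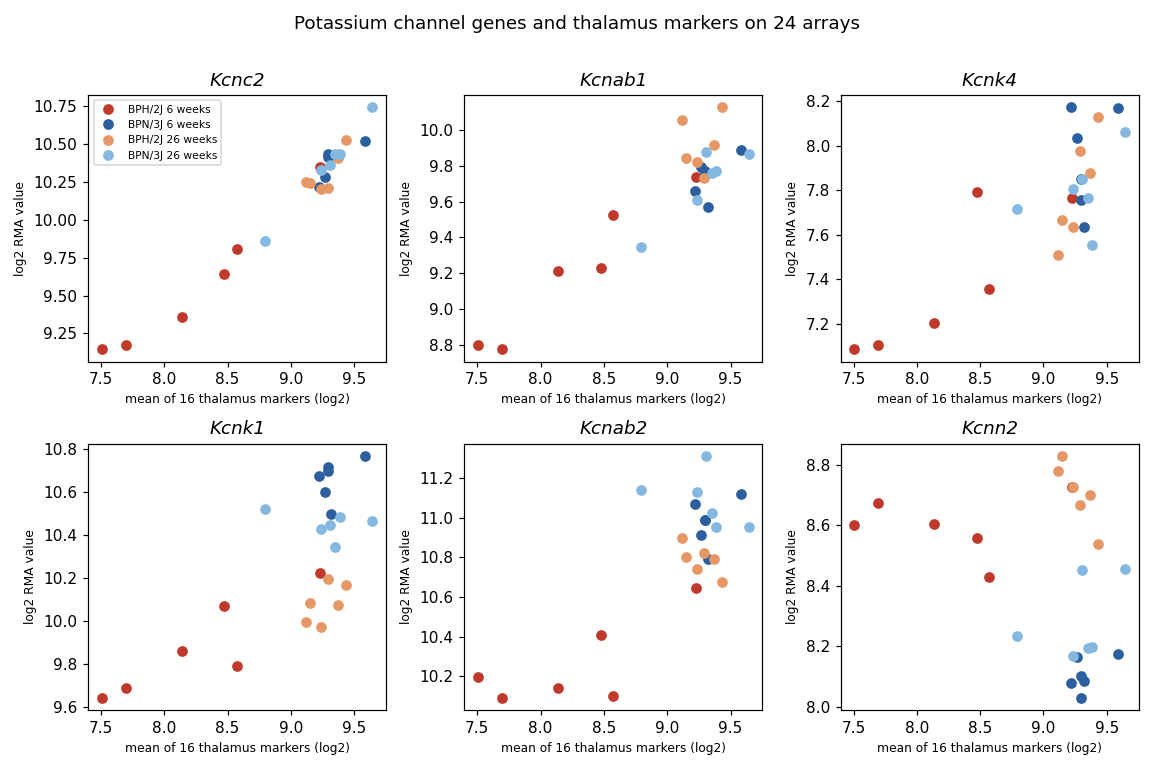
Log2 RMA value of 6 channel genes (vertical axes) against the mean of 16 thalamus markers (horizontal axes, log2) on 24 arrays, coloured by group. Kcnc2, Kcnab1 and Kcnk4 are low where the marker mean is low, while Kcnn2 is higher in BPH/2J at each age.

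With the thalamus marker mean of each array as a covariate, 4 channel genes were called at 6 weeks, where 0.707% of all genes were. Kcnn2 was at 0.52 ± 0.10 (adjusted p = 0.00735), Kcnk1 at -0.50 ± 0.10 (adjusted p = 0.00759) and Kcnab2 at -0.54 ± 0.12 (adjusted p = 0.0331). Kcnf1, a silent subunit gene, was the fourth, at 0.57 ± 0.13 (adjusted p = 0.0372), and was not called without the covariate (0.08 ± 0.12). Kcnab3 (-0.99), Kcng4 (-0.64), Kcnip3 (-0.45), Kcna5 (0.46) and Kcnip2 (0.44) kept differences over 0.4 in size and did not pass. Kcnc2 was at 0.01, Kcnab1 at 0.10, Kcna4 at -0.03, Kcnmb4 at -0.04, Kcnj12 at -0.03 and Kcnk4 at -0.08. With the oligodendrocyte marker mean as the covariate instead, tried after seeing the data, Kcnk1 (-0.67), Kcnab2 (-0.48), Kcnc2 (-0.81) and Kcnn2 (0.56) were called. Kcnab3 (-0.27), Kcng4 (-0.08), Kcna1 (-0.19) and Kcnip3 (-0.27) became smaller in size and lost their calls. Kcna4 (-0.43), Kcna5 (0.61), Kcnab1 (-0.50), Kcnip2 (0.59), Kcnj12 (-0.33), Kcnk2 (0.36), Kcnk4 (-0.49) and Kcnmb4 (-0.48) lost theirs with differences nearer to those without it. The part of other tissue or cell types in the remaining differences was not tested.

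**Figure D4:**
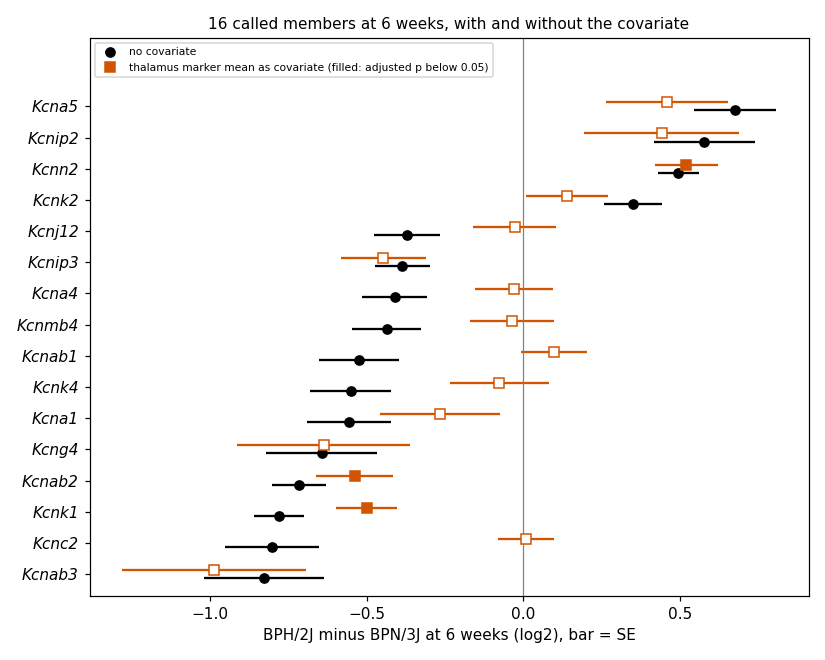
Strain difference at 6 weeks (horizontal axis, log2, bar = SE) of the 16 called channel genes (vertical axis), without (black circles) and with (orange squares) the thalamus marker mean as a covariate, filled where the adjusted p was below 0.05. Kcnk1, Kcnab2 and Kcnn2 keep their calls, and Kcnc2 moves from -0.80 to 0.01.

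Proteins that bind, anchor or modulate these channels were followed through 26 measured partner genes outside the Kcn symbols. At 6 weeks 1 of 26 was called (3.85%, beside 7.42% of all genes). It was Adam23, a membrane partner of the LGI proteins that regulate Kcna channels, at -0.24 ± 0.07 (adjusted p = 0.0230). The median difference of the partner genes was -0.01, beside 0.01 over all genes.

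Likeness of pattern was measured as Pearson's r over 24 deviations from group means, against 19846 other genes, for the 3 channel genes with the smallest p at 6 weeks. Kcnk1 was most like Ndufa10 (r = 0.858), Cplx1 (0.838) and Pcp4l1 (0.826). Kcnab2 was most like Gpd1 (r = 0.836), Nefm (0.831) and Mkrn1 (0.825), and Kcnn2 most like Map7 (0.746), Pcmtd1 (0.690) and Thoc1 (0.688). The genes share the arrays and the array differences given above, so the values are descriptions. Without the 2 arrays farthest from the median, r was 0.637 to 0.822 over these 9 genes.

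The second comparison asked the same question in adult mice. At 26 weeks 4 channel genes were called, Kcnn2 higher and Kcnip3, Kcnk1 and Kcnj6 lower in BPH/2J. They were 4.40% of the 91, beside 2.67% of all genes (1.32% higher and 1.34% lower), and 14 had an unadjusted p below 0.05, beside 12.5% of all genes. For 4 genes the strains did not overlap (1.75% of all genes): Kcnn2, Kcnip3, Kcnk1 and the uncalled Kcnab2. Kcnn2, Kcnip3 and Kcnk1 were called at both ages, in the same direction.

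Kcnn2 ran from 8.54 to 8.83 (median 8.71) in 26-week BPH/2J and from 8.17 to 8.46 (median 8.21) in BPN/3J. The strains were apart as at 6 weeks, with a difference of 0.42 ± 0.07 (adjusted p = 0.000132). For Kcnip3 the values were 8.50 to 8.92 (median 8.84) against 8.98 to 9.37 (median 9.22). All BPH/2J arrays were lower, with a difference of -0.41 ± 0.09 (adjusted p = 0.00697).

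Kcnk1 had 9.97 to 10.20 (median 10.08) in BPH/2J and 10.34 to 10.52 (median 10.46) in BPN/3J. The gap between the strains was present on every array and the difference was -0.37 ± 0.08 (adjusted p = 0.00752). Kcnj6 encodes a G-protein-gated inward rectifier that hyperpolarises neurons on transmitter release. Its values of 6.21 to 6.46 (median 6.31) in BPH/2J and 6.43 to 6.90 (median 6.53) in BPN/3J overlapped slightly. The difference of -0.29 ± 0.07 (adjusted p = 0.0244) missed the threshold when replicate 1 or 5 of BPH/2J, or 4 or 6 of BPN/3J, was left out, with adjusted p up to 0.0764. It also missed it with the replicate number as a block over the 26-week arrays alone (adjusted p = 0.0766).

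Kcnab2 lay at 10.68 to 10.90 in BPH/2J and 10.95 to 11.31 in BPN/3J. The strains did not overlap, yet the difference of -0.30 ± 0.09 had an adjusted p of 0.0603. Kcnab3 was at -0.53 ± 0.19 (adjusted p = 0.179) and Kcnab1 at 0.21 ± 0.13 (adjusted p = 0.546). The 6-week calls Kcnc2 (-0.05 ± 0.15), Kcna1 (0.03 ± 0.13), Kcna4 (0.02 ± 0.10), Kcnk4 (0.01 ± 0.13), Kcnk2 (-0.04 ± 0.09), Kcnmb4 (0.09 ± 0.11) and Kcnj12 (0.03 ± 0.10) were not called at 26 weeks, when 1 of the 16 thalamus markers was called. Kcna5 (0.26 ± 0.13) and Kcnip2 (0.30 ± 0.16) were on the higher side without passing. The Kcnip2 difference includes BPH/2J replicate 3 at 8.214, with the others of that group at 7.173 to 7.437. That array also had the high striatum marker mean, and the part of striatum tissue was not tested. Of the 26 partner genes limma called 0, beside 2.67% of all genes. An unadjusted p below 0.05 was seen for 2 (7.69%, beside 12.5% of all genes).

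The sets of 26-week arrays bear on these values. In replicates 1 to 4 alone Kcnn2 differed by 0.51 (adjusted p = 8.00e-05), Kcnip3 by -0.42 (0.00598) and Kcnk1 by -0.39 (0.0285), while Kcnj6 was at -0.23 (0.0879). Replicates 5 and 6 alone, which are 2 arrays a group, gave 0.26 for Kcnn2 and -0.39, -0.31 and -0.39 for Kcnip3, Kcnk1 and Kcnj6, with 0 channel genes called, beside 1.12% of all genes. Kcnh8, a slowly gated ether-a-go-go relative, was at -0.34 ± 0.11 (adjusted p = 0.0947). It was called with a term for the array sets (adjusted p = 0.000468) and in replicates 1 to 4 alone (-0.34, adjusted p = 0.00650). The sets were taken from these same values, so those calls are no separate evidence. With the term 4.42% of all genes were called, beside 2.67% without it.

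The interaction of strain and age asked directly whether the strain difference changed between 6 and 26 weeks. No channel gene passed, where limma called 0.0301% of all genes (6 genes, 0.00502% higher and 0.0251% lower). At an unadjusted p below 0.05 there were 26 of 91 channel genes and 10.8% of all genes. Kcnab1 came closest, at 0.73 ± 0.18 (adjusted p = 0.0779), followed in size of p by Kcnk1 (0.41 ± 0.11, adjusted p = 0.105) and Kcnc2 (0.75 ± 0.21, adjusted p = 0.123). A positive value means that BPH/2J stood higher relative to BPN/3J at 26 than at 6 weeks. For Kcnn2 the interaction was -0.07 ± 0.09 and for Kcnip3 -0.02 ± 0.12. Without BPH/2J replicate 2 at 6 weeks 8 channel genes were called, beside 2.49% of all genes, all positive: Kcna1 (0.69), Kcna4 (0.51), Kcnab1 (0.84), Kcnab2 (0.50), Kcnc1 (0.41), Kcnc2 (0.90), Kcnk1 (0.48) and Kcnj9. With the thalamus marker mean as a covariate 0 were called and Kcnab1 was at 0.12.

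Age within each strain was compared last. In BPH/2J 24 channel genes were called, 15 higher and 9 lower at 26 weeks than at 6, which is 26.4% of the 91 beside 16.9% of all genes (8.23% higher and 8.64% lower). An unadjusted p below 0.05 was seen for 45, beside 31.6% of all genes. Of the 91, 9 did not overlap between the ages (9.89%, beside 4.05% of all genes). In BPN/3J 12 were called, 4 higher and 8 lower, which is 13.2% beside 12.3% of all genes (4.60% higher and 7.66% lower), with 35 at an unadjusted p below 0.05 (29.3% of all genes), and 3 did not overlap (4.57% of all genes). By role the BPH/2J calls were 7 voltage-gated alpha subunits, 6 accessory subunits, 4 tandem-pore-domain channels, 3 inward rectifiers, 3 calcium- or sodium-activated channels and 1 silent subunit. In BPN/3J they were 4 alpha subunits, 3 inward rectifiers, 3 calcium- or sodium-activated channels, 1 accessory subunit and 1 antisense transcript. Called in both strains, in the same direction, were Kcnd3, Kcnj6, Kcnn3 and Kcnt2, which rose, and Kcna3, Kcne1l and Kcnj10, which fell. The 6-week and 26-week arrays of each strain also enter the strain comparisons above, so these contrasts are not independent of them.

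Kcnd3, an A-type channel gene, ran from 8.17 to 8.39 at 6 weeks and 8.41 to 8.61 at 26 weeks in BPH/2J, and from 8.18 to 8.37 and 8.46 to 8.75 in BPN/3J. The ages did not overlap in either strain, and the increases were 0.24 ± 0.06 (adjusted p = 0.00846) and 0.30 ± 0.06 (adjusted p = 0.00562). Its antisense transcript Kcnd3os was at -0.19 ± 0.10 in BPH/2J and fell by 0.33 ± 0.10 in BPN/3J (adjusted p = 0.0308).

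Kcnj6 lay between 5.99 and 6.18 at 6 weeks and between 6.21 and 6.46 at 26 weeks in BPH/2J. In BPN/3J it lay between 6.12 and 6.32, then between 6.43 and 6.90. The ages did not overlap in either strain, with differences of 0.22 ± 0.07 (adjusted p = 0.0318) and 0.41 ± 0.07 (adjusted p = 0.00163). The smaller one missed the threshold in 7 of 24 fits that each left out 1 array, all of them BPH/2J arrays (26-week replicates 1, 2, 3, 4 and 6 and 6-week replicates 4 and 6), with adjusted p up to 0.0733. Kcnj10, which clears potassium into astrocytes, fell by 0.27 ± 0.07 (adjusted p = 0.0115) in BPH/2J and fell by 0.25 ± 0.07 (adjusted p = 0.0283). In BPN/3J that call was lost without 26-week replicate 1, 2 or 4 or 6-week replicate 2 or 5.

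Kcnn3, a relative of Kcnn2, was higher at 26 weeks by 0.28 ± 0.09 in BPH/2J (adjusted p = 0.0261) and 0.32 ± 0.09 in BPN/3J (adjusted p = 0.0191). The first call was lost in 6 of 24 fits that left out 1 array (26-week replicates 1, 2 and 3 and 6-week replicates 1, 3 and 4 of BPH/2J) and the second without 26-week BPN/3J replicate 4 (adjusted p = 0.0557). The sodium-activated Kcnt2 rose by 0.54 ± 0.14 and 0.43 ± 0.14, with adjusted p of 0.0105 and 0.0471. Kcna3, a channel of microglia, lymphocytes and some neurons, fell by 0.41 ± 0.10 (adjusted p = 0.00491) in BPH/2J and fell by 0.31 ± 0.10 (adjusted p = 0.0376).

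Several genes were called with age in BPH/2J that were also called between the strains at 6 weeks, and both results use the same 6-week BPH/2J arrays. Kcnab2 lay between 10.09 and 10.65 at 6 weeks and between 10.68 and 10.90 at 26 weeks in BPH/2J, with no overlap and a rise of 0.53 ± 0.09 (adjusted p = 0.000316). In BPN/3J it changed by 0.11 ± 0.09 (adjusted p = 0.419). Kcnab1 rose by 0.70 ± 0.13 in BPH/2J (adjusted p = 0.000761) beside -0.03 ± 0.13 in BPN/3J, and Kcna4 by 0.55 ± 0.10 (adjusted p = 0.00101) beside 0.12 ± 0.10. Kcnc2 (0.73 ± 0.15, adjusted p = 0.00215) and Kcnk4 (0.41 ± 0.13, adjusted p = 0.0304) rose in BPH/2J as well. The Kcnk4 call was lost when 26-week replicate 1 or 5 or 6-week replicate 1, 3, 4 or 5 of BPH/2J was left out, with adjusted p up to 0.0827. The thalamus marker mean of BPH/2J was 8.27 ± 0.63 at 6 weeks and 9.27 ± 0.12 at 26 weeks (SD, n = 6), and 14 of its 16 markers rose. With that mean as a covariate 0 channel genes were called for age in BPH/2J, beside 0.0451% of all genes, and Kcnc2 was at -0.03. None of the interaction tests of these genes passed, so a difference in their age changes between the strains was not shown.

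Other age calls were the BK beta subunit Kcnmb2 and the acid-sensitive leak channel Kcnk9. In BPH/2J Kcnmb2 ran from 6.18 to 6.75 at 6 weeks and 6.94 to 7.34 at 26 weeks, without overlap, and rose by 0.73 ± 0.12 (adjusted p = 0.000347). In BPN/3J it was at 0.31 ± 0.12 (adjusted p = 0.0824). Kcnk9 lay between 8.95 and 9.59 at 6 weeks and between 8.48 and 8.85 at 26 weeks in BPH/2J, where it fell by 0.58 ± 0.11 (adjusted p = 0.000912), and stood at -0.15 ± 0.11 in BPN/3J. The sodium-activated Kcnt1 fell by 0.50 ± 0.11 in BPH/2J (adjusted p = 0.00390), and Kcnk2 fell by 0.42 ± 0.09 (adjusted p = 0.00328).

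In BPN/3J Kcnj11, the pore of the neuronal ATP-sensitive channel, fell by 0.23 ± 0.06 (adjusted p = 0.0167), lying between 7.20 and 7.40 at 6 weeks and between 6.95 and 7.25 at 26 weeks. The ages overlapped slightly, and the call was lost without 26-week replicate 2 (adjusted p = 0.0502). The small-conductance gene Kcnn1 fell by 0.40 ± 0.10 (adjusted p = 0.0131), with 6.81 to 7.20 at 6 weeks and 6.52 to 6.86 at 26 weeks. In BPH/2J Kcnj11 was at 0.00 ± 0.06 and Kcnn1 at -0.13 ± 0.10. Oligodendrocyte markers also fell with age in BPN/3J, with 6 of 11 called and a mean of 10.37 ± 0.23 at 6 weeks and 9.93 ± 0.22 at 26 weeks (SD, n = 6). With that mean as a covariate 10 channel genes were called, 7 higher and 3 lower, beside 10.6% of all genes, and 5 of the 12 calls were shared. Kcnn1 (-0.28, adjusted p = 0.102), Kcnn3 (0.31, adjusted p = 0.0605), Kcnt2 (0.32, adjusted p = 0.218), Kcnd3os, Kcna6, Kcne1l and Kcnh2 were no longer called, and Kcnab2 (0.32, adjusted p = 0.0121) was among the 5 gained.

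Among partner genes Lgi1 rose and Amigo1 and Vapb fell in both strains; Calm2, a calmodulin gene, rose in BPH/2J. They were 4 of 26 called in BPH/2J (15.4%, beside 16.9% of all genes) and 3 of 26 in BPN/3J (11.5%, beside 12.3%).

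Age calls depended on the sets of 26-week arrays. With replicates 1 to 4 as the 26-week arrays 42 channel genes were called in BPH/2J and 38 in BPN/3J, beside 39.3% and 33.6% of all genes. With replicates 5 and 6 alone there were 3 (1.95% of all genes) and 1 (0.135%). Kcnn1 in BPH/2J was at -0.25 in the first set and 0.11 in the second, and Kcnmb2 in BPN/3J at 0.48 and -0.01. Of the 10 genes named for age, Kcnj6, Kcnd3, Kcnab2, Kcnn3 and Kcna4 kept their direction in both sets and both strains. What distinguishes the sets was not tested.

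**Figure D5:**
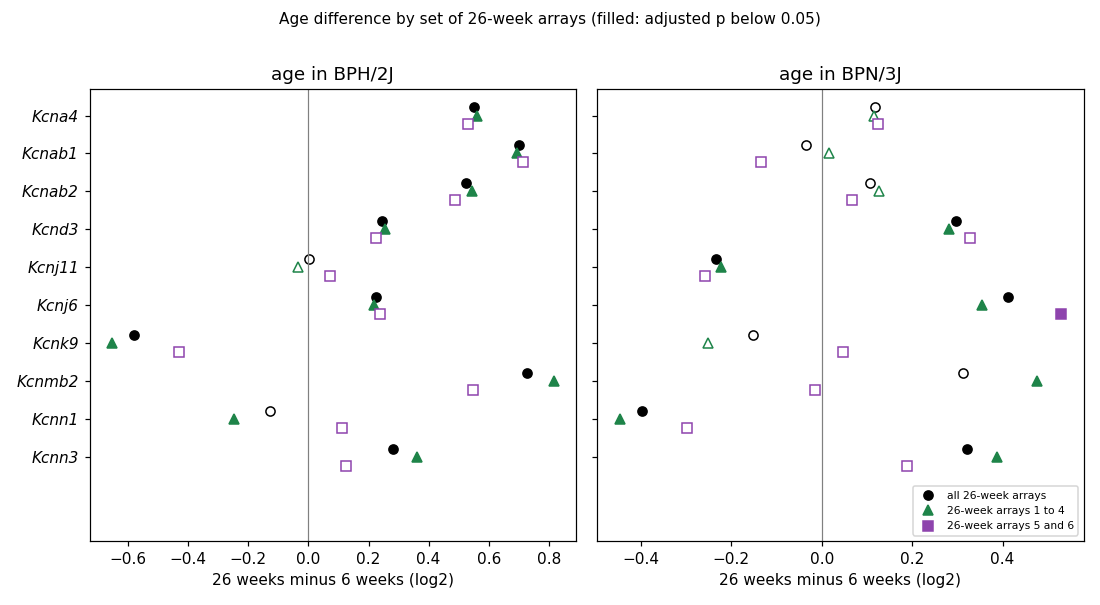
Difference of 26 weeks minus 6 weeks (horizontal axis, log2) of the 10 channel genes named for age (vertical axis) in BPH/2J (left) and BPN/3J (right), with all 26-week arrays (circles), replicates 1 to 4 (triangles) and replicates 5 and 6 (squares), filled where the adjusted p was below 0.05. Kcnd3 and Kcnj6 lie to the right of 0 in each set and strain, and Kcnn1 in BPH/2J lies on either side of 0 by set.

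Kcnj13 and Kcne2 are channel genes of the choroid plexus, the tissue that makes cerebrospinal fluid, and Kcnj13 varied the most of all members within a group. At 26 weeks it stood at 9.17 and 7.81 in BPH/2J replicates 3 and 4, and between 4.44 and 5.06 on the other 4 arrays. In BPN/3J replicates 2, 3 and 4 had 9.25, 7.67 and 8.94, and the others 4.53 to 5.42. The mean of 7 choroid plexus markers was high on the same arrays, at 8.23 and 7.52 in BPH/2J and 8.49, 7.47 and 8.06 in BPN/3J, and 5.96 to 6.59 on the rest of the 26-week arrays. Kcne2 reached 6.07 and 5.98 on BPN/3J replicates 2 and 4. In BPH/2J it did not follow the markers, at 4.28 to 4.73 on 26-week replicates 1 to 4, with replicates 3 and 4 among them. No contrast of Kcnj13 or Kcne2 was called, and the strain difference of Kcnj13 at 26 weeks was -0.75 ± 0.78.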

How the data were processed

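The deposited log2 values cover 34760 probe sets on 24 arrays. Per the submitters' processing notes the tools were RMA and limma; the sources used here give no versions. RMA brings arrays to a common distribution, so a level is set relative to the whole array. Probe sets were named through GEO's platform annotation. All 91 symbols matched RefSeq, and 0 changed. limma 3.58.1 in R 4.3.3 fitted a mean per group over all 24 arrays, with 20 residual degrees of freedom, and gave 5 contrasts. The code was tested on simulated data.

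Genes given in full were those called between strains, the 5 smallest p of each age contrast and a fixed set of 20, of which 2 are not reported here. The channel genes and the lists were chosen with earlier results of these data known. The sets of 26-week arrays and the oligodendrocyte covariate were chosen after seeing the data.

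Groups and numbers came from the titles; the design text once gives BPN/3J another suffix. Same-numbered 26-week arrays of the strains correlated in their deviations at 0.13 to 0.44, which met the rule used for pairing (over 0.1 in every pair). In only 3 of 6 cases did the best match have the same number. Both strains share the division into array sets, and its part in these correlations was not tested, so true pairs were not shown. Those at 6 weeks correlated at -0.23 to 0.05. Between the ages the values were 0.01 to 0.41 in BPH/2J, with 4 over 0.1, and -0.10 to 0.05 in BPN/3J. Alternatives changed the arrays in the fit, probe set choice, centring, dim-gene filter, array weights, prior variance, block, marker covariates and single arrays.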

Additional observations from a re-analysis of the deposited data

Results flagged for a closer look

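A test for a sample far from the others of its group was run on 128 groups of 6 values and marked 10, where chance alone marks about 1 in 20. Kcna5 stood at 6.239 in 6-week BPH/2J replicate 2, with the others at 6.572 to 6.655, and Kcnma1 at 9.355 in the same array, with the others at 9.007 to 9.078. Kcnab3 was 6.719 in 6-week BPH/2J replicate 5, below 7.666 to 8.154. In 6-week BPN/3J replicate 5, Kcnc1 was high at 8.671 and Kcnk2 low at 8.275. At 26 weeks Kcnd2 (9.715) and Kcnn3 (8.381) were low in BPN/3J replicate 5, while Kcnc1 (8.751) and Kcnq3 (9.542) were high in replicate 6. Kcnip2 was 8.214 in 26-week BPH/2J replicate 3, with the others at 7.173 to 7.437.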

How the results depend on the processing

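Counts of called channel genes moved by over 1.5 times under some alternatives, and the cause was not tested. The share of all genes called follows each count in parentheses. For strain at 6 weeks, 16 became 25 (11.6%) when the fit held only the 6-week groups, 34 (18.7%) with array weights, 4 (0.707%) with the thalamus covariate and 4 (2.05%) with the oligodendrocyte covariate, of which 15, 16, 3 and 4 were shared. For strain at 26 weeks, 4 became 2 (1.24%) when it held only the 26-week groups and 0 (1.12%) with 26-week arrays 5 and 6 only, which leaves fewer arrays. For the interaction, 0 became 8 (3.43%) with array weights and 2 (1.26%) with a term for the array sets. For age in BPH/2J, 24 became 49 (37.5%) with array weights, 0 (0.0451%) with the thalamus covariate, 42 (37.5%) with the set term, 42 (39.3%) with arrays 1 to 4 and 3 (1.95%) with arrays 5 and 6. For age in BPN/3J, 12 became 39 (32.2%) with array weights, 42 (36.7%) with the set term, 38 (33.6%) with arrays 1 to 4 and 1 (0.135%) with arrays 5 and 6.

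Leaving out 1 array gave 12 to 23 calls for strain at 6 weeks (5.19% to 9.84% of all genes), 3 to 7 at 26 weeks (2.15% to 3.62%), 0 to 8 for the interaction (0% to 2.49%), 17 to 34 for age in BPH/2J (10.7% to 24.3%) and 4 to 26 for age in BPN/3J (5.19% to 21.2%). At 26 weeks 7 were called without BPN/3J replicate 5. For age in BPN/3J there were 26 without 26-week replicate 5, 19 without 6, 7, 5 and 4 without 1, 2 and 4, and 7, 6 and 7 without 6-week replicates 2, 3 and 4.

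Among values called as reported or under the alternative, those that changed sign were, with the thalamus covariate, Kcnab1 (0.10) and Kcnc2 (0.0084) for strain at 6 weeks and Kcnc2 (-0.035) and Kcnk4 (-0.033) for age in BPH/2J, and, with the oligodendrocyte covariate, Kcng4 for age in BPN/3J (0.45). Of 4213 values called in neither, 161 changed sign, 22 of them with the thalamus covariate, among them for strain at 6 weeks Kcnj13 (0.49 to -0.70), Kcnd2 (-0.30 to 0.14) and Kcnq3 (-0.26 to 0.12). Over the 32 genes given in full, 5340 values kept their direction and side of the threshold, 116 lost a call and 133 gained one.

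With the replicate number as a block over all arrays the counts were 17 (7.80%), 5 (2.76%), 0 (0.135%), 26 (19.5%) and 16 (15.4%) in that order of contrasts, with every call of the fit without it retained, and Kcnh8 was gained at 26 weeks (-0.34). With the block over the 26-week arrays alone, where the numbers met the rule for pairing, 4 were called (1.93%), with Kcnj6 lost (-0.29) and Kcnh8 gained. Dim genes, near the level of unnamed probe sets, are measured with less contrast.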
